A study of Mus musculus with 4 samples.

Results

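Hnf4a, Tfcp2l1, Pax2, Pax8, Lhx1, Emx1, Emx2 and Tfap2b are transcription factors that build the nephron or hold the identity of its segments, and their RNA was followed here in kidneys injured by ischemia-reperfusion (I/R). The 8 genes were picked out by name among the 54078 features of the expression table. All 8 had a mean FPKM of at least 0.5, the limit for testing, as did 15414 genes in all. FPKM is the number of fragments scaled by gene length and by a factor for each library, which here followed the median-of-ratios size factor and not the reads on genes.

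The study asked what loss of Apela in renal tubules changes in the injured kidney. Apela encodes ELA, a secreted peptide ligand of the receptor APJ. WT and Apela Ksp KO mice underwent bilateral I/R (bI/R) with 30 min of clamping, and total kidney RNA was taken at day 3. Each group had 2 libraries, and each library was a pool of RNA from 3 mice, so n = 2 counts pools. In the Apela Ksp KO mice, a floxed Apela allele was removed by Cre under the promoter of Ksp-cadherin (Cdh16), which is active in tubular epithelium and leaves Apela of other kidney cells in place. WT mice were littermates with the floxed allele and without Cre. All mice were adult males, of strain C57BL/6 x 129S4/SvJae by the labels and of C57BL/6 background by the methods of the study. No uninjured kidney was sequenced, so every value below belongs to injured tissue, and the 4 libraries allow no statement on what the injury did to these genes.

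In the embryo, Pax2 and Pax8 are needed together for the nephric duct and for the conversion of mesenchyme into nephrons, with Lhx1 acting in the same early steps and Emx2 in the ureteric bud. Hnf4a is a nuclear receptor that drives proximal tubule maturation and the genes of lipid and solute handling there. Tfap2b acts in the distal convoluted tubule, and Tfcp2l1 patterns the principal and intercalated cells of the collecting duct. Emx1 is the paralog of Emx2 and is best known from the cerebral cortex. Pax2 and Pax8 remain on in parts of the adult tubule, and both have been studied in tubules that regenerate.

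The genes differ in where and how they are transcribed. Their positions are those of GRCm38, in the gene models used for the table. Hnf4a lies on the plus strand at chr2:163506808-163572910 and has 5 annotated transcripts, 4 of them coding, with starts on either side of a long first intron. The upstream start is known as P2 and the downstream start as P1, which is the main one in adult kidney and liver. FPKM per gene do not separate them. Tfcp2l1 lies at chr1:118627945-118685168 (plus strand), Pax8 at chr2:24420560-24475599 (minus strand) and Pax2 at chr19:44756045-44837871 (plus strand). Lhx1 spans chr11:84518284-84525535 on the minus strand, Emx1 spans chr6:85187438-85204462 on the plus strand, Emx2 spans chr19:59458372-59465357 on the plus strand and Tfap2b spans chr1:19208914-19238576 on the plus strand.

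The start regions below are those of the most abundant member, of the member with the largest difference between the groups and of the members that share their start with a gene on the other strand. They are RefSeq windows of 250 bases before to 50 after an annotated start on GRCm38.p6, in the gene's own direction, and 11 such windows matched the 8 genes. Both Hnf4a windows are shown, P2 at chr2:163506607-163506906 and P1 at chr2:163546905-163547204, with copies of the letters GTTAAT (either strand) in capitals. Capitals mark the TATA box (TATAAA) in Tfcp2l1, at chr1:118627695-118627994. In Lhx1, at chr11:84525485-84525784 on the minus strand, they mark the 124 bases that lie between the gene and Lhx1os. In Emx2, at chr19:59458440-59458739, they mark the 196 bases of the window that lie within both Emx2 and Emx2os.
Hnf4a P2: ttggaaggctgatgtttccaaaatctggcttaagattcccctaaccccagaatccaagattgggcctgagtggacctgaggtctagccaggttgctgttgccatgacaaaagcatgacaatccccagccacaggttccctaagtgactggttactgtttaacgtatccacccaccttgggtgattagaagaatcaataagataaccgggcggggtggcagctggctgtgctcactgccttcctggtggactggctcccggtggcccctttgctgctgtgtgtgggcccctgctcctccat
Hnf4a P1: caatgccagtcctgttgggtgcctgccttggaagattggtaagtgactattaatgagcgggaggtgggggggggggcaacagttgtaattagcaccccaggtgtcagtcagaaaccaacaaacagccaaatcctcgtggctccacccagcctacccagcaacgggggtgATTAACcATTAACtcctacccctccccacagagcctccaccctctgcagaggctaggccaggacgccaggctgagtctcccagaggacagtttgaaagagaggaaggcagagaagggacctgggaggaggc
Tfcp2l1: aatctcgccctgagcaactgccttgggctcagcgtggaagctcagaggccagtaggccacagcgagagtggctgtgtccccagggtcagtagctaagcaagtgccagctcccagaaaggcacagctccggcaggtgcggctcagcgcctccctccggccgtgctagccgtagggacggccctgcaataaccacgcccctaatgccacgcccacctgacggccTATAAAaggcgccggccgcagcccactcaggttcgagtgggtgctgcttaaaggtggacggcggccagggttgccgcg
Lhx1: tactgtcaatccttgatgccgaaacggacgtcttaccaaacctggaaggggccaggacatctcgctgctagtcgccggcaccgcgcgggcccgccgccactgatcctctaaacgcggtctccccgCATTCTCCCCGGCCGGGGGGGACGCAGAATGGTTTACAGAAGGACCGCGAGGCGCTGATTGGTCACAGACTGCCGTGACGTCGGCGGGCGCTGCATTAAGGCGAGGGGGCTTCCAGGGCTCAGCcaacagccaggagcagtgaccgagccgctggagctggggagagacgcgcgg
Emx2: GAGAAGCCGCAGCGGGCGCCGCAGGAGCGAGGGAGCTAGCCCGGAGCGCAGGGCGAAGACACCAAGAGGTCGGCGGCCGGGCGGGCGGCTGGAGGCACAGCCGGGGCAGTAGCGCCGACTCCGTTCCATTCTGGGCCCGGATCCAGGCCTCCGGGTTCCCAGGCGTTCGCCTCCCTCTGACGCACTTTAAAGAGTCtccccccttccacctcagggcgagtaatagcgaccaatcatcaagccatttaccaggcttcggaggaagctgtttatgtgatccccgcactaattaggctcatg

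The P1 window of Hnf4a held 2 adjacent copies of GTTAAT on the minus strand, the first starting 81 bases before the start, and the P2 window held none. GTTAAT was present in 7.10% of the 32851 RefSeq windows and 2 or more in 0.548%. The TATAAA of Tfcp2l1 began 28 bases before its start, and 13.6% of all windows hold these letters on either strand. The letters were picked after the windows had been read, and a match is not evidence of binding. The ratio of observed to expected CpG was over 0.6 in 6 of the 11 windows and in 35.8% of all windows. It was 0.961 in Lhx1, 0.903 in Emx1, 0.838 in Emx2, 0.812 and 0.789 in 2 of the 3 Pax2 windows, and 0.656 in Tfcp2l1. Hnf4a stood at the other end with 0.183 (P2) and 0.163 (P1), followed by Pax8 with 0.288.

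Reads on genes ranged from 16045724 to 16927742 per library. Apela was at an FPKM of 5.27 and 4.57 in WT, against 0.536 and 0.245 in KO. Even this deleted gene did not pass an adjusted p of 0.05 in limma, where the smallest value of any tested gene was 0.466. Cdh16, the gene whose promoter drives Cre, had an FPKM of 279 and 267 in WT and of 262 and 243 in KO (limma, adjusted p = 0.906). Adipose tissue is named in the design text of the series, while the labels name kidney. Of 6 adipocyte genes, Adipoq, Lep and Ucp1 had an FPKM of at most 0.268 in any pool, and Plin1 had 4 and 1 reads in WT and 27 and 9 reads in KO. The other two were tested and were highest in KO replicate 1. Cidec, a lipid droplet gene, had an FPKM of 1.37 and 0.282 in WT and of 7.92 and 2.79 in KO (adjusted p = 0.785 in limma), and Fabp4, which capillaries also express, had 10.2 and 13.0 in WT and 14.6 and 11.7 in KO. WT replicate 2 stood apart from the other pools by its macrophage markers, of which 10 of 12 had their highest value in it, with a summed FPKM of 496 against 210 to 266 elsewhere. Fibroblast markers were also highest there in 7 of 8, with a summed FPKM of 311 against 156 to 208. Endothelial markers were higher in KO in 9 of 10 (median log2 fold change 0.22, 0.05 when WT replicate 1 and 0.10 when KO replicate 2 was left out), 5 of them without overlap against 19.7% of all genes, and their summed FPKM was 204 and 235 in WT and 279 and 298 in KO. The part of these cell types in the results below was not tested. These libraries are whole kidney, where fewer cells of a type and less RNA per cell cannot be told apart. Nothing in the labels says that the 2 pools of a group came from separate experiments. The p-values therefore set the group difference against the spread between these pools, moderated across genes, and not against that between experiments.

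The 8 genes spanned a wide range of levels, and their order was led by Hnf4a with a mean FPKM over the 4 pools of 147 and Tfcp2l1 with 69.5. Pax8 followed at 15.9, Emx2 at 11.6, Emx1 at 10.8, Pax2 at 9.20, Tfap2b at 8.42 and Lhx1 at 4.91. The values of the pools did not overlap between Hnf4a and Tfcp2l1, between Tfcp2l1 and Pax8, or between Tfap2b and Lhx1. From Pax8 down to Tfap2b each gene overlapped the next, so these neighbours are not told apart by their ranges, although Emx1 was above Pax2 within each of the 4 pools. Some genes further apart in this order did separate, since the lowest Pax8 pool (12.0) lay above the highest pools of Pax2 (10.3) and Tfap2b (9.97). Others did not, since the highest Emx1 pool (12.6) lay above that Pax8 pool. Within a pool, Hnf4a made up between 51.9% and 54.9% of the summed FPKM of the 8 genes.

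**Figure D1:**
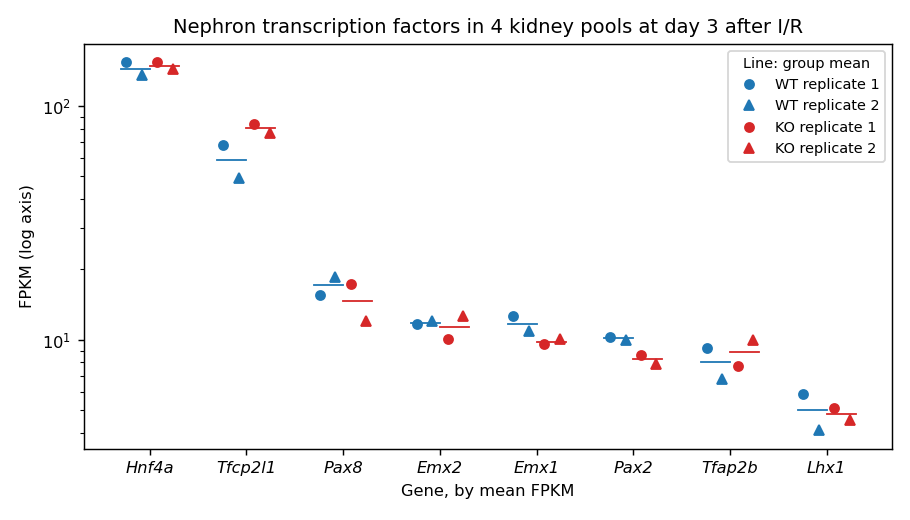
FPKM (log axis) of the 8 nephron transcription factors in each of the 4 pools, with genes on the horizontal axis in the order of their mean; blue, WT; red, Apela Ksp KO; circles, replicate 1; triangles, replicate 2; lines, group means. The KO points of Tfcp2l1 (84.2 and 76.5) lie above its WT points (68.3 and 49.0), those of Pax2 (8.59 and 7.89) and Emx1 (9.55 and 10.0) lie below, and the other 5 genes overlap.

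Among genes with the same DNA-binding domain, several of the 8 led their family. Of the 25 genes listed in the nuclear receptor family (zf-C4), 18 were tested, and Hnf4a had the highest mean FPKM among them (rank 299 of all 15414 genes). Tfcp2l1 had the highest of the 4 tested CP2 factors (rank 731). Pax8 and Pax2 were the only tested PAX genes out of 8, and Tfap2b was the higher of 2 tested AP-2 genes. Of the 36 tested homeobox genes, Emx2 came 6th, Emx1 7th and Lhx1 13th. Those above Emx2 were the Hox genes Hoxd8, Hoxb6, Hoxb7, Hoxb8 and Hoxa7, which give positional identity along the body axis.

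When KO was compared with WT, no gene of the 15414 passed an adjusted p of 0.05 in limma (0%), and 974 (6.32%) had an unadjusted p under 0.05. None of the 8 nephron factors did so by either rule in this fit, though Pax2, Emx1 and Tfcp2l1 had an unadjusted p under 0.05 in some alternative fits, with no adjusted p below 0.359. The study, by a model that its methods do not name, reported differentially expressed genes for this comparison at an adjusted p under 0.05. The reason for the difference from the fit used here was not tested. Apela, the deleted gene, was not called here, so the lack of calls does not show that no gene changed. Groups without overlap, where both KO pools lay above or both below the WT pools, were found for 3 of the 8 (37.5%) and for 5822 of all tested genes (37.8%). For KO above WT the share of all genes was 19.7%, with Tfcp2l1 alone among the 8, and for KO below WT it was 18.1%, with Pax2 and Emx1. The median log2 fold change was -0.05 over the 8 and 0.01 over all genes, and that of the 8 turned to 0.02 when WT replicate 1 was left out. The share of the 8 without overlap was thus near that of all genes and is no result about them.

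Tfcp2l1, the collecting duct factor, had the largest difference. Its FPKM was 68.3 and 49.0 in WT and 84.2 and 76.5 in KO, from 7962 to 13291 reads. Both KO pools were higher than both WT pools, and WT replicate 2 was the lowest. WT pools averaged 58.7 ± 13.6 and KO pools 80.3 ± 5.46 (mean ± SD, n = 2). The log2 fold change of 0.47 had a 95% confidence interval of -0.06 to 0.99 (adjusted p = 0.792 in limma). By its size in either direction, this value lay at percentile 88.2 of all tested genes. Without WT replicate 2 the log2 fold change was 0.23, smaller in size than those of Emx1 (-0.35) and Pax2 (-0.31). Without KO replicate 1 it was 0.40, against -0.49 for Pax8. As a ratio within each pool, Tfcp2l1 to Hnf4a was 0.444 and 0.362 in WT and 0.548 and 0.532 in KO. These ratios did not overlap, but an exact two-sided permutation test of 2 against 2 pools cannot go below p = 0.3333, the value found here.

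Pax2 was the lower of the pair of Pax genes in every pool. Its FPKM was 10.3 and 10.0 in WT and 8.59 and 7.89 in KO, from 693 to 932 reads. The WT values lay close together and both KO values lay below them. The log2 fold change was -0.29, with a 95% confidence interval of -0.58 to 0.004 and an adjusted p of 0.785 in limma, and it stayed between -0.35 and -0.23 whichever pool was left out. Pax8 had pools that overlapped, with an FPKM of 15.6 and 18.6 in WT and of 17.3 and 12.0 in KO. KO replicate 2 was the lowest of the 4 pools and the other 3 overlapped. The log2 fold change of Pax8 was -0.24 (95% confidence interval -0.79 to 0.32, adjusted p = 0.854 in limma) and 0.02 without KO replicate 2. The ratio of Pax8 to Pax2 was 1.51 and 1.86 in WT and 2.01 and 1.52 in KO, and the groups overlapped (exact two-sided permutation p = 0.667). Of the exon windows searched, 3 of the 4334 windows of 25 bases in Pax2 occurred in Pax8, and none of the 3362 in Pax8 occurred in Pax2. No window of 50 bases was shared in either direction. These windows came from the longest transcript of each gene and were sought in every transcript of the other. Exon bases outside that longest transcript gave no windows.

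The Emx genes had like levels. Emx1 had an FPKM of 12.6 and 10.9 in WT and of 9.55 and 10.0 in KO, from 349 to 442 reads, with both KO pools below both WT pools. Its log2 fold change was -0.25 (95% confidence interval -0.57 to 0.08, adjusted p = 0.797 in limma) and -0.15 without WT replicate 1. Emx2 had an FPKM of 11.7 and 12.0 in WT and of 10.0 and 12.6 in KO. The KO pools of Emx2 enclosed the WT pools. The log2 fold change of Emx2 was -0.07 (95% confidence interval -0.46 to 0.31, adjusted p = 0.942 in limma) and turned to 0.09 without KO replicate 1. Emx2 relative to Emx1 was 0.927 and 1.10 in WT and 1.05 and 1.25 in KO, again with overlap (exact two-sided permutation p = 0.667). None of the exon windows of 25 bases searched, 1537 in Emx1 and 2892 in Emx2, was shared between the pair. These windows too came from the longest transcript of each gene.

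Hnf4a, the proximal tubule factor, was the most even of the 8. Its FPKM was 154 and 136 in WT and 154 and 144 in KO, from 11256 to 12416 reads. The KO values fell inside the WT range, and the highest pools of each group were nearly equal. The log2 fold change was 0.04 with a 95% confidence interval of -0.35 to 0.43 (adjusted p = 0.968 in limma). Its sign was not stable, since it was -0.08 after quantile normalization and -0.03 after scaling to the reads on genes.

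Lhx1, the early nephron factor, was the lowest of the 8 with an FPKM of 5.88 and 4.10 in WT and of 5.09 and 4.55 in KO, from 287 to 385 reads. Both KO pools lay between the WT pools. The log2 fold change was -0.03 (95% confidence interval -0.55 to 0.49, adjusted p = 0.987 in limma), and leaving out a WT pool moved it to 0.21 (replicate 1) or -0.26 (replicate 2). Tfap2b, the distal tubule factor, had an FPKM of 9.19 and 6.81 in WT and of 7.72 and 9.97 in KO. WT replicate 2 was the lowest and KO replicate 2 the highest, and the groups overlapped. Tfap2b had a log2 fold change of 0.14 (95% confidence interval -0.40 to 0.68, adjusted p = 0.910 in limma), which turned to -0.06 without WT replicate 2.

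WT replicate 2 was the lowest pool for 4 of the 8 genes, Hnf4a, Tfcp2l1, Tfap2b and Lhx1, and for 30.7% of all tested genes. It was the highest pool for Pax8 alone among the 8, and for 29.1% of all tested genes. WT replicate 1 was the highest pool for 4 of the 8, Hnf4a, Pax2, Emx1 and Lhx1, and for 20.7% of all tested genes. WT replicate 2 is also the pool with the high macrophage and fibroblast markers. Counting error alone gave a coefficient of variation in the lowest pool between 0.94% for Hnf4a and 5.90% for Lhx1.

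**Figure D2:**
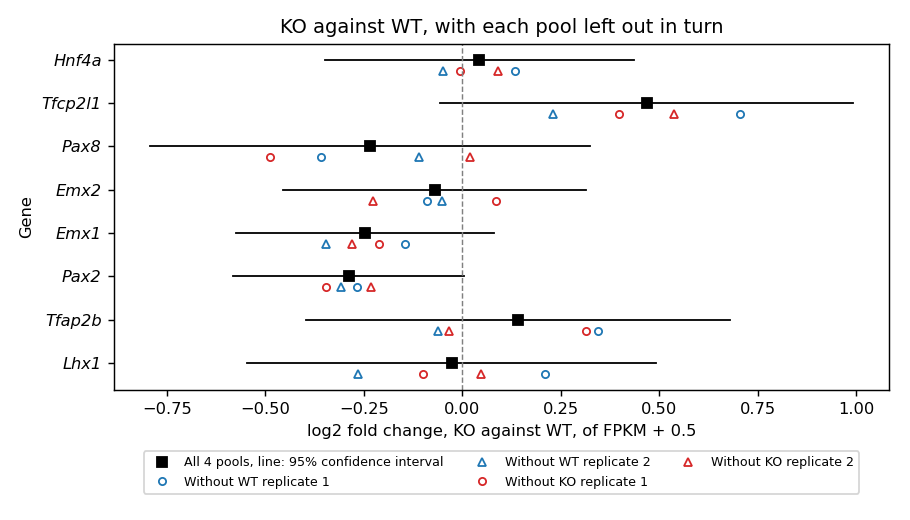
log2 fold change of KO against WT for each of the 8 genes; squares, all 4 pools with the 95% confidence interval of limma as a line; open symbols, the value when the named pool is left out. Every interval includes 0, and the open symbols of Hnf4a, Pax8, Emx2, Tfap2b and Lhx1 fall on both sides of 0 while those of Tfcp2l1, Pax2 and Emx1 stay on one side.

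Hnf4a, Lhx1 and Emx2 each have a transcribed partner on the other strand. Hnf4aos, an antisense gene at chr2:163493807-163541720, covers 34913 bases of the Hnf4a gene body, P2 included, without sharing an exon base. It had an FPKM of 8.54 and 2.13 in WT and of 14.0 and 10.3 in KO, from 131 and 35 reads in WT and 223 and 159 reads in KO. Its KO pools exceeded its WT pools, while Hnf4a itself overlapped, and WT replicate 2 was the lowest. The log2 fold change of Hnf4aos had a 95% confidence interval of -0.26 to 2.97 (adjusted p = 0.797 in limma). Per unit of Hnf4a, Hnf4aos was 0.0555 and 0.0157 in WT and 0.0909 and 0.0713 in KO.

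Lhx1os, a long noncoding RNA that starts 124 bases from Lhx1 and runs the other way, was more abundant per length than Lhx1 in every pool. Its FPKM was 15.6 and 10.6 in WT and 12.6 and 13.5 in KO, and both genes had WT replicate 1 as the highest and WT replicate 2 as the lowest pool. The ratio of Lhx1os to Lhx1 was 2.65 and 2.58 in WT and 2.47 and 2.97 in KO, a range of 1.20-fold. Emx2os, which overlaps the first 264 bases of Emx2 by exon, had an FPKM of 1.08 and 1.13 in WT and of 1.06 and 1.31 in KO. Emx2 and Emx2os shared KO replicate 1 as the lowest and KO replicate 2 as the highest pool. Emx2 was 10.8 and 10.6 times Emx2os in WT and 9.48 and 9.60 times in KO (exact two-sided permutation p = 0.3333, the smallest possible). These pairs were compared after their values had been seen. The library protocol describes no step that marks the strand, so in the shared bases of Emx2 and Emx2os, and in the 367 exon bases that Pax8 shares with Gm13415 (11 to 19 reads in any pool), reads of the partners cannot be told apart. The small nuclear RNA gene inside Hnf4a had 2 to 5 reads, the features inside Pax2 had at most 8 reads in any pool, those inside Tfcp2l1 had at most 2, and none lies within Emx1 or Tfap2b.

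**Figure D3:**
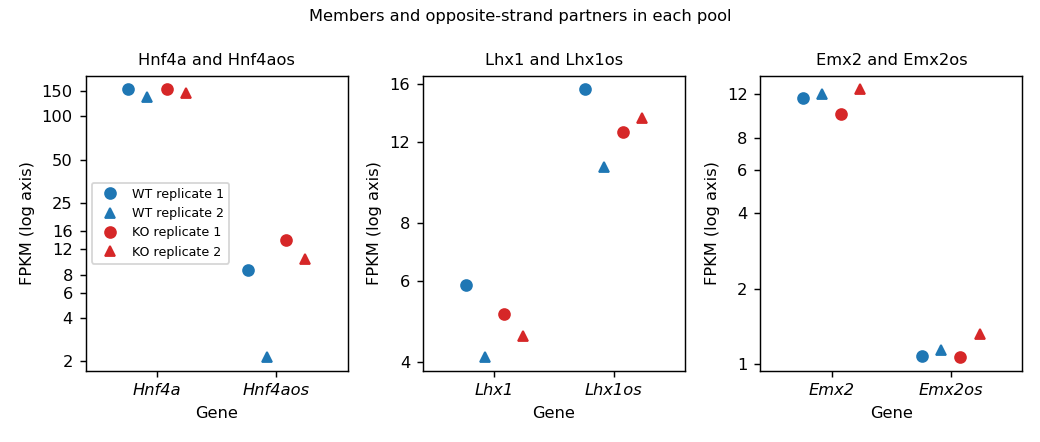
FPKM (log axis) in each pool for Hnf4a, Lhx1 and Emx2 and for their partners on the other strand; blue, WT; red, Apela Ksp KO; circles, replicate 1; triangles, replicate 2. Hnf4aos runs from 2.13 to 14.0 while Hnf4a stays between 136 and 154, whereas Lhx1os and Emx2os keep the pool order of their partners at the highest and lowest pool.

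The other transcription factors of the nephron gave the setting for these values. Of 69 listed factors of the progenitor, the segments, the podocyte and stroma and the injury response, 60 were tested, and 26 had a higher and 34 a lower mean log2 level in KO. Pools did not overlap for 16 of the 60 (26.7%, against 37.8% of all genes), 10 with KO above and 6 with KO below. The median log2 fold change was -0.04, and no adjusted p was under 0.05.

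Among proximal tubule factors, 7 of 11 were higher and 4 lower, with a median of 0.04 that was -0.0023 when WT replicate 2 and 0.14 when KO replicate 2 was left out. The median also turned to -0.024 after quantile normalization and to -0.035 after scaling to the reads on genes. Ppara, the receptor that switches on fatty acid oxidation, had an FPKM of 19.0 and 14.8 in WT and of 31.9 and 29.1 in KO. Its log2 fold change of 0.84 was the largest of the 60, with an unadjusted p of 0.00433 and an adjusted p of 0.650 in limma. Vdr, the vitamin D receptor, was the other proximal factor with an unadjusted p under 0.05 and was named after its values were seen, with an FPKM of 42.9 and 31.3 in WT and of 62.8 and 48.4 in KO (adjusted p = 0.785 in limma). Nr1h4, the bile acid receptor FXR, and Esrra, a regulator of mitochondrial genes, overlapped between the groups.

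Of the 12 loop and distal tubule factors, 8 were higher and 4 lower, with a median of 0.13 that turned to -0.07 when WT replicate 2, the lowest pool for 9 of them, was left out, and that was 0.0075 when KO replicate 1 was. Irx3 led by level (FPKM 23.3 and 26.0 in WT, 34.0 and 21.5 in KO), and Esrrb had the largest difference with 4.29 and 2.97 in WT and 4.72 and 5.37 in KO (log2 fold change 0.44, adjusted p = 0.797 in limma). Collecting duct factors went both ways, with 4 of 12 higher, 8 lower and a median of -0.06, which turned to 0.10 or 0.05 when WT replicate 1 or KO replicate 1 was left out. Ehf, an ETS factor of epithelia, had an FPKM of 7.99 and 6.32 in WT and of 9.27 and 9.53 in KO (adjusted p = 0.785 in limma). Gata3, which acts in the duct from its first steps, had 4.32 and 3.33 in WT and 2.89 and 2.96 in KO (adjusted p = 0.797 in limma). Tfcp2l1 thus had the same side as Ehf and the opposite side to Gata3, and none of them passed the threshold.

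The nephron progenitor factors Six2, Eya1 and Cited1 had an FPKM of at most 0.307 in any pool and were not tested. The 8 tested progenitor and early nephron factors had a median of -0.07, or of 0.04 when WT replicate 1 was left out, and Sall1 led them with an FPKM of 17.8 and 14.7 in WT and of 21.6 and 14.9 in KO. All 4 tested podocyte and stromal factors were lower in KO, 3 of them without overlap (18.1% of all genes lay below WT in this way), with WT replicate 2 as the highest pool for 3 of the 4, as for the fibroblast markers. The podocyte markers were higher in 5 of 6 (median 0.09). Tcf21, a factor of stromal cells and podocytes, had an FPKM of 10.8 and 14.0 in WT and 10.0 and 8.55 in KO (log2 fold change -0.39, adjusted p = 0.797 in limma). Injury response factors were lower in 9 of 13, and Atf3, a stress-induced factor, had an FPKM of 6.79 and 11.3 in WT and of 4.66 and 5.60 in KO (unadjusted p = 0.0444, adjusted p = 0.785 in limma). The median of the injury response factors was -0.14 and ran from -0.47 without WT replicate 1 to 0.15 without WT replicate 2.

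**Figure D4:**
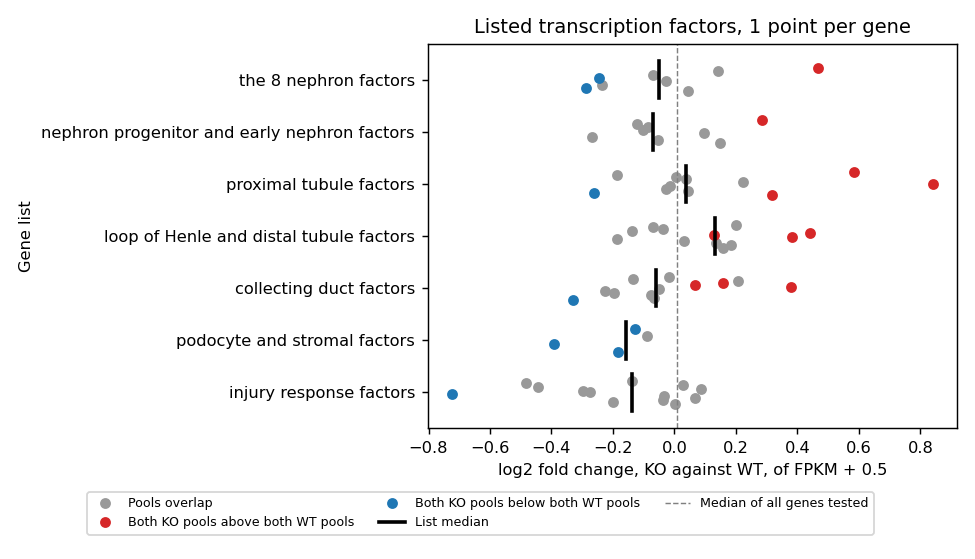
log2 fold change of KO against WT for the 8 nephron factors and for the 60 tested factors of 6 other lists, 1 point per gene; red, both KO pools above both WT pools; blue, both below; grey, overlap; black bars, list medians; dashed line, the median of all genes tested (0.01). The list medians lie between -0.16 and 0.13, and the widest points are Ppara at 0.84 and Atf3 at -0.72.

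The genes of each segment were set beside the factors that act there. Of 27 tested proximal tubule genes, 20 were lower and 7 higher in KO, with a median of -0.23, while Hnf4a was at 0.04. Pools did not overlap for 11 below and 3 above WT, against 18.1% and 19.7% of all genes. Leaving out WT replicate 2 gave a median of -0.40, and leaving out WT replicate 1 gave -0.11. Slc34a1, the main phosphate transporter of the proximal tubule, had an FPKM of 898 and 689 in WT and of 365 and 609 in KO (adjusted p = 0.797 in limma). Slc34a3, the second phosphate transporter there, had the most negative fold change of the list with 9.58 and 10.6 in WT and 2.51 and 6.14 in KO (unadjusted p = 0.0281, adjusted p = 0.785 in limma). Kap, an androgen-regulated gene of the same cells, overlapped with 8976 and 4387 in WT and 6038 and 9316 in KO. Pck1 had the most positive fold change of the list, with 1771 and 575 in WT and 2122 and 1594 in KO. Its pools overlapped, and the log2 fold change was 0.86 (adjusted p = 0.825 in limma).

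Thick ascending limb genes were higher in 9 of 12 with a median of 0.11, which moved to -0.05 when WT replicate 2 was left out and to 0.30 when WT replicate 1 was. Umod, which encodes uromodulin, had an FPKM of 1080 and 788 in WT and of 1133 and 858 in KO. Distal convoluted and connecting tubule genes were lower in 8 of 12 (median -0.09), where Tfap2b was at 0.14, and leaving out WT replicate 1 or KO replicate 1 turned that median to 0.24 or 0.27. In the collecting duct, where Tfcp2l1 acts, principal cell genes were higher in 6 of 9 (median 0.06) and intercalated cell genes lower in 7 of 13 (median -0.11). Neither direction was stable, as the principal cell median went to -0.21 when WT replicate 2 and to -0.03 when KO replicate 2 was left out, and the intercalated cell median went to 0.07 when KO replicate 1 and to 0.04 when WT replicate 1 was. Aqp2, the vasopressin-regulated water channel, had an FPKM of 247 and 159 in WT and of 289 and 204 in KO (adjusted p = 0.870 in limma). Slc4a9, an intercalated cell anion exchanger, had 21.3 and 20.9 in WT and 16.5 and 17.2 in KO (unadjusted p = 0.0342, adjusted p = 0.785 in limma).

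Whole-nephron epithelial genes had a median of 0.15, with 6 of 10 higher and 4 lower, and the median was 0.07 when either WT pool was left out. Their pools did not overlap for 5 above and 2 below WT, against 19.7% and 18.1% of all genes. Tubular injury genes were split evenly at 6 and 6, with a median of 0.01 that moved to -0.27 when KO replicate 1 was left out and to -0.23 when WT replicate 1 was. Within them Lcn2 had an FPKM of 133 and 95.2 in WT and of 249 and 273 in KO (unadjusted p = 0.00299) while Vcam1 had 14.6 and 31.0 in WT and 10.5 and 2.59 in KO (unadjusted p = 0.0459). Neither passed the adjusted threshold in limma. Macrophage markers had a median of -0.54, which was 0.05 without WT replicate 2.

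**Figure D5:**
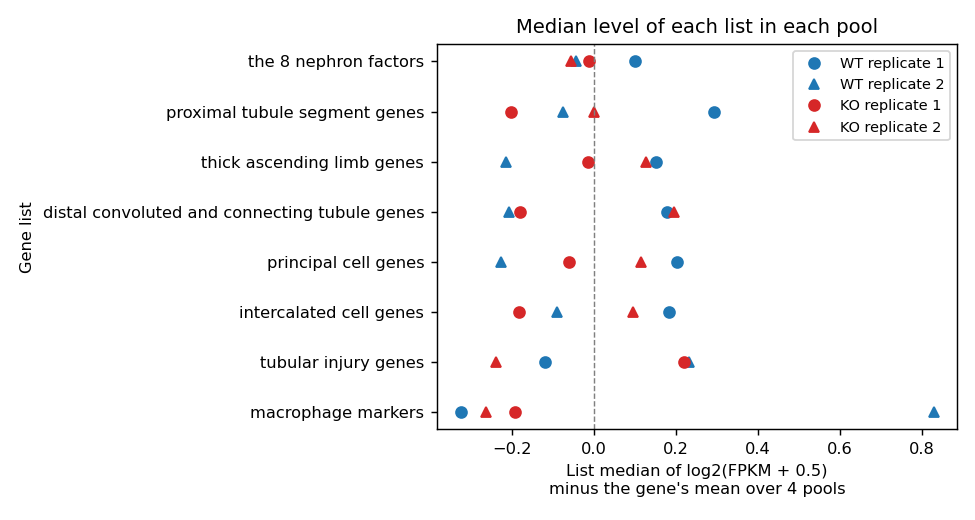
Median of log2(FPKM + 0.5) over each gene list in each pool, after subtraction of each gene's mean over the 4 pools; blue, WT; red, Apela Ksp KO; circles, replicate 1; triangles, replicate 2. The 8 nephron factors lie between -0.06 and 0.10, thick ascending limb genes between -0.22 and 0.15, and WT replicate 2 stands out at 0.83 for macrophage markers.

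For each of the 8 genes, the 2 listed genes with the nearest profile over the 4 pools were sought among 199, as the root mean square difference of log2(FPKM + 0.5) after centring. Tfap2b lay nearest to the proton pump subunits Atp6v0d2 (0.03) and Atp6v1g3 (0.03) of intercalated cells. Lhx1 was nearest to Slc27a2 (0.02), a fatty acid transporter, and Pax8 to the injury gene Clu (0.02). Pax2 paired with Slc4a9 (0.06), and Emx1 with Hsd11b2 (0.04), the enzyme that shields the mineralocorticoid receptor from glucocorticoids. The nearest to Emx2 was Wnt7b (0.03), and the nearest to Hnf4a was the podocyte gene Nphs1 (0.03), although Hnf4a itself varied by only 0.08 on this measure. Tfcp2l1 had the least close neighbours, Wnk4 (0.07) and Ehf (0.09). With 4 points per gene and 199 candidates, such likeness is a description of these pools.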

How the data were processed

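Poly-A RNA of 4 kidney pools was sequenced. The authors deposited FPKM per gene with gene positions and lengths. The submitters' processing notes name HISAT2 2.0.5 and the build GRCm38.p6 (mm10), and the counting tool is not given in the sources used here. Multiplied by gene length and by 1 scale per pool, found from the values, all nonzero FPKM came out as whole reads (within 0.01 of a read), with the scales in the same ratio to the median-of-ratios size factors in each pool, and these recovered reads served for depth and for voom weights.

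In R 4.3.3, limma 3.58.1 was fitted to log2(FPKM + 0.5) of the 15414 genes whose mean FPKM reached 0.5 (eBayes with a mean-variance trend, no covariates, two-sided), and p-values were adjusted over them by Benjamini-Hochberg. Fold changes are on the log2(FPKM + 0.5) scale and understate those of low genes. Ratios were tested by exact permutation. Python 3.11.15 with numpy 2.4.6, scipy 1.17.1, pandas 2.3.3 and matplotlib 3.10.9 was used otherwise.

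The 8 genes and the other lists were chosen with earlier results of these data known. Genes to be named were the 8, Apela, Cdh16, overlapping features, the nearest profiles and, from each list, the 3 of highest level and the largest fold change in each direction, of which some are given and some are not reported here. Alternatives were other pseudocounts, filters and scalings, no trend, voom weights, a replicate block and each pool left out in turn.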

Additional observations from a re-analysis of the deposited data

How the results depend on the processing

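The count of genes past an adjusted p of 0.05 was 0 under each of the 13 alternative fits, while an unadjusted p under 0.05 was found for 687 to 1720 genes (974 in the reported fit). With the replicate block it was also 0, with 932 genes at an unadjusted p under 0.05, and the block changed no other call. Same-numbered pools did not deviate together (correlation -0.0017 over 15414 genes). With only the difference between the replicates of each group to compare, this cannot show whether same-numbered pools were handled together.

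Over all fits, the adjusted p ran from 0.359 to 0.992 for Tfcp2l1 and from 0.589 to 0.992 for Pax2. An unadjusted p under 0.05 was found for Pax2 with no filter, with the filter of 1, under scaling to the reads on genes and with voom weights, for Emx1 under that scaling and for Tfcp2l1 without WT replicate 1. Hnf4a turned to -0.078 under quantile normalization and to -0.030 under scaling to the reads on genes, and scaling moved the median of all genes to -0.057. The median of the whole-nephron epithelial genes was 0.029 and 0.083 under the same changes, that of the podocyte markers was 0.031 under scaling to the reads on genes, and that of the adipose markers was 1.15 over the 2 tested and 0.31 with no filter, which brings in the untested markers. Under quantile normalization and scaling to the reads on genes, medians turned to -0.024 and -0.035 for proximal tubule factors and to -0.12 and -0.062 for tubular injury genes. The principal cell median turned to -0.011 under that scaling.

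With each pool left out in turn, log2 fold changes ran from -0.048 to 0.13 for Hnf4a, from -0.49 to 0.018 for Pax8, from -0.26 to 0.21 for Lhx1, from -0.23 to 0.086 for Emx2 and from -0.062 to 0.34 for Tfap2b, so the sign of these 5 rests on single pools. They kept one sign for Tfcp2l1 (0.23 to 0.70), Pax2 (-0.35 to -0.23) and Emx1 (-0.35 to -0.15). The difference in the log2 ratio of Pax8 to Pax2 ran from -0.14 to 0.26. The median of the 8 ran from -0.087 to 0.022 and was -0.12 under scaling to the reads on genes. List medians ran from -0.089 to 0.040 for progenitor and early nephron factors, from -0.0023 to 0.14 for proximal tubule factors, from -0.069 to 0.25 for loop and distal tubule factors, from -0.16 to 0.10 for collecting duct factors, from -0.32 to -0.10 for podocyte and stromal factors and from -0.47 to 0.15 for injury response factors. For segment and marker genes they ran from -0.40 to -0.11 (proximal tubule), from -0.047 to 0.30 (thick ascending limb), from -0.28 to 0.27 (distal convoluted and connecting tubule), from -0.21 to 0.24 (principal cell), from -0.34 to 0.073 (intercalated cell), from 0.068 to 0.18 (whole-nephron epithelial), from -1.08 to 0.047 (macrophage) from 0.031 to 0.20 (podocyte), from -0.27 to 0.069 (tubular injury), from 0.050 to 0.36 (endothelial), from -0.63 to 0.30 (fibroblast) and from 0.73 to 1.56 (adipose). The cause was not tested for any of these. With 2 pools per group, the 95% confidence intervals of the 8 genes leave room for changes in either direction.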

Other observations

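Next to Hnf4a, the gene R3hdml lies on the plus strand at chr2:163492318-163502612 and overlaps 8806 bases of Hnf4aos on the other strand, without a shared exon base. It was looked up after the values of Hnf4aos had been seen. R3hdml had an FPKM of 4.15 and 0.584 in the WT pools and of 4.21 and 5.29 in the KO pools, from 73 and 11 reads in WT and 77 and 94 reads in KO (limma, adjusted p = 0.798). As for Hnf4aos, WT replicate 2 was the lowest pool, and the other 3 pools of R3hdml lay between 4.15 and 5.29, while Hnf4a lay between 136 and 154 in all 4 pools.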
